A study of Mus musculus with 24 samples.

Results

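Neutrophils are drawn into skin by ELR-type CXC chemokines that act on 1 main receptor, CXCR2, and their release and survival are driven by granulocyte colony-stimulating factor, G-CSF. The genes described here are the chemokines Cxcl1, Cxcl2 and Cxcl5, their receptor gene Cxcr2, the G-CSF gene Csf3 and its receptor gene Csf3r. They were taken by gene symbol from the array table, where all 6 genes were found, on 8 probe sets of 45101, and they are 6 of the 18193 genes tested.

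Expression was measured on 24 Affymetrix arrays of shaved dorsal scapular skin from female RAG2-/- mice, which lack an intact Rag2 gene and therefore cannot assemble antigen receptors, so that T and B cells come from the transferred cells. All 6 groups share this genotype, and each holds 4 arrays. Syngeneic mice had received Balb/c splenocytes. GVH-SSc mice model the sclerodermatous kind of graft-versus-host disease: they were given B10.D2 splenocytes and either an isotype antibody or anti-IFNAR1, which binds 1 of the type I interferon receptor chains. Skin was taken on day 14 or day 28. The labels name no antibody for the syngeneic mice, so in isotype against syngeneic skin graft and antibody cannot be told apart. The labels give no age, and do not say whether each array is a different animal, so p-values measure the spread between these arrays only, which may be partly technical. Whole skin was measured, and in such samples fewer cells of a type and less RNA per cell cannot be told apart.

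CXCL1, CXCL2 and CXCL5 are made by keratinocytes, fibroblasts, endothelium and macrophages after stimulation by IL-1, TNF, IL-17 or microbial products, largely through the transcription factor NF-kappaB. CXCR2 is carried mainly by neutrophils. G-CSF is a secreted cytokine that is hardly made at rest, and its receptor marks neutrophils and, at a lower level, monocytes. In skin these genes are known for the early wave of inflammation after wounding and in psoriasis-like disease.

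Cxcl1 and Cxcl2 are neighbouring copies of 1 ancestral gene on chr5, and the stretch just before each start site is shown so that their promoters can be compared. RefSeq's promoter table (build GRCm38.p6) held 4 of the 6 genes, Cxcl1, Cxcl2, Cxcr2 and Csf3r. The capitals mark the match to GGANTTTCC, a core NF-kappaB site, searched on both strands of the 250 bases before each start.
Cxcl1, chr5:90891125-90891244, plus strand: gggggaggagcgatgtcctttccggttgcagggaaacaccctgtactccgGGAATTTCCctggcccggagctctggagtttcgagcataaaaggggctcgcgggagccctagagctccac
Cxcl2, chr5:90903779-90903898, plus strand: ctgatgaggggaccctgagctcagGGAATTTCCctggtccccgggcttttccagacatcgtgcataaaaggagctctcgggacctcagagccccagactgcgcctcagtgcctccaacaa

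The matched letters were the same in both genes, and their first letter lay 70 bases before the start of Cxcl1 and 96 bases before that of Cxcl2. Of 32851 promoter windows of that length, 1.07% held GGANTTTCC. No match was found in the windows of Cxcr2 and Csf3r. GAAANNGAA, the core of an interferon-stimulated response element, is in 7.13% of all windows and TTCNNNGAA, an interferon gamma-activated site, in 7.02%. Neither was found in the windows of the 4 genes. A match is a description of the letters, and no match says only that these letters are not in this window.

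The deposited values are probe set intensities on a linear scale, and the median of an array lay between 14.8 and 17.7. Changes are given as differences of log2(intensity + 16) with their standard error (SE), which understates the change of dim genes. A gene is called changed where limma's adjusted p, by Benjamini-Hochberg over all 18193 genes, is under 0.05. The skin label was borne out by the resting keratinocyte genes, of which Krt5, a keratin of the basal layer, stood between 17336 and 34580 on all 24 arrays. The log2 ratio of the 3' to the 5' probe set of Gapdh, a measure of RNA integrity and labelling, was above 4 on 5 arrays. These were syngeneic replicate 4, anti-IFNAR1 replicates 3 and 4 on day 14, and syngeneic replicate 3 and isotype replicate 1 on day 28.

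**Figure D1:**
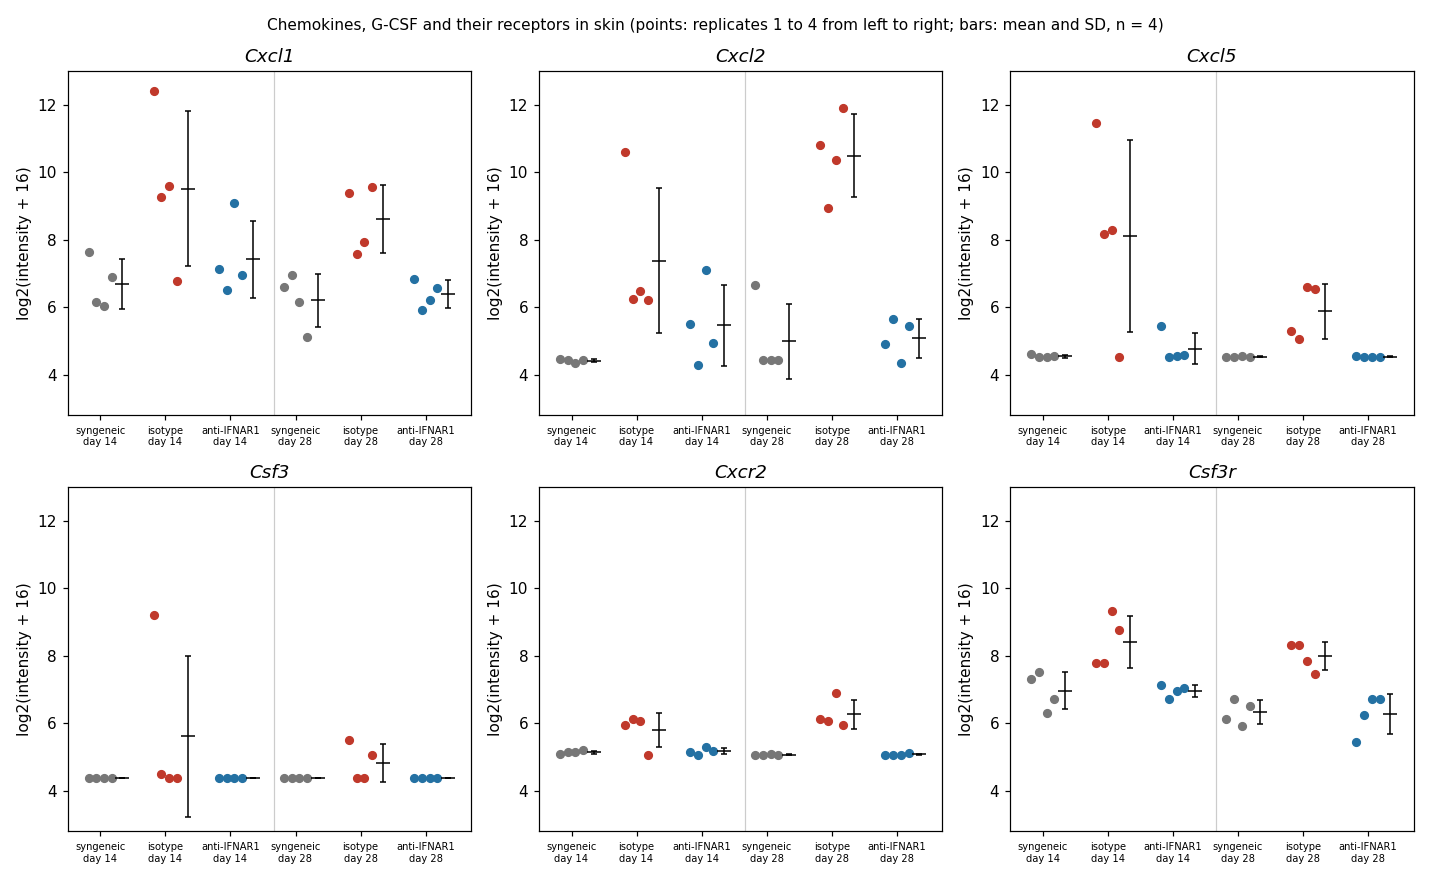
Level of each gene on each of the 24 arrays, as log2(intensity + 16), by group. Points are the 4 replicates of a group and bars are the mean and SD. The isotype arrays of day 28 lie above all syngeneic and anti-IFNAR1 arrays of that day for every gene but Csf3, while the isotype arrays of day 14 are widely spread. The share of all genes that separate in this way on day 28 was not counted.

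On day 14 limma called all 3 chemokines higher in isotype than in syngeneic skin. On day 28 it called only Cxcl2 of the 3, higher in isotype skin and lower with anti-IFNAR1. Cxcl1 and Cxcl5 differed in the same directions on day 28 without passing. Their isotype arrays lay above both other groups of that day, and the share of all genes that separate so was not counted. On day 14 the isotype arrays ranged from the syngeneic level to the highest values of the study for Cxcl1 and Cxcl5, with 1 array far above the others. On day 28 Cxcl2 was the chemokine with the largest change, and all 4 isotype arrays were high.

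Cxcl1, the mouse counterpart of the human GRO chemokines, was read by 3 probe sets, of which the brightest stands for the gene. Its intensities for replicates 1 to 4 in syngeneic skin on day 14 were 181.6, 55.3, 50.2 and 104.4. In isotype skin on day 14 they were 5452, 599.8, 757.2 and 94.9. In anti-IFNAR1 skin on day 14 they were 125.6, 75.3, 528.8 and 108.7. Isotype replicates 1 to 3 exceeded every syngeneic and anti-IFNAR1 array of day 14, and replicate 4 lay inside both of those ranges. Day 28 intensities of Cxcl1 in syngeneic skin were 81.5, 107.4, 55.5 and 19.0. In isotype skin they were 651.6, 176.4, 229.2 and 741.0, and in anti-IFNAR1 skin 99.4, 44.8, 58.9 and 79.7. The isotype arrays of day 28 lay above all others of that day, with no overlap.

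Cxcl1 rose by 2.83 ± 0.85 (SE, n = 4 against 4, limma adjusted p = 0.032) in isotype against syngeneic skin on day 14. This call was lost in 8 of 19 alternatives. Without isotype replicate 1 the change was 1.87 with an adjusted p of 0.12. Without replicate 2 it was 2.92 (adjusted p = 0.066), and without replicate 3 it was 2.81 (adjusted p = 0.07). The day 28 difference was 2.41 ± 0.85 (adjusted p = 0.06), just short of the threshold. Anti-IFNAR1 against isotype skin gave -2.09 ± 0.85 (adjusted p = 0.22) on day 14 and -2.22 ± 0.85 (adjusted p = 0.094) on day 28. The fit takes 1 spread per gene from all 6 groups, and the SD of Cxcl1 was 2.30 in isotype skin on day 14 against 0.40 to 1.14 in the other 5 groups.

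The other probe sets of Cxcl1 ordered the isotype arrays of day 14 alike. On the second brightest these read 5201, 494.3, 940.1 and 52.8, against 9.73 to 85.9 in syngeneic skin of that day. The change on this probe set was 4.03 ± 0.90 (adjusted p = 0.011 over 45037 probe sets) for isotype against syngeneic on day 14, larger than on the brighter one. On day 28 it was 2.34 ± 0.90 (adjusted p = 0.13). The third was dim, with medians of 8.58 to 25.7 in the 6 groups.

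Cxcl2, also called MIP-2, the second CXCR2 ligand made early in inflamed tissue, stood near the bottom of the array in syngeneic skin on day 14, at 6.31, 5.46, 4.31 and 5.61. In isotype skin of that day its intensities were 1532, 59.9, 74.0 and 57.9, and in anti-IFNAR1 skin 29.3, 3.65, 122.5 and 14.4. All 4 isotype arrays exceeded all syngeneic ones, and anti-IFNAR1 replicate 3 was higher than isotype replicates 2 to 4. The syngeneic intensities of Cxcl2 on day 28 were 85.6, 5.50, 5.63 and 5.67. The isotype intensities were 1764, 474.1, 1291 and 3799, and those of anti-IFNAR1 skin 13.9, 34.0, 4.34 and 27.3. The highest other array of day 28, at 85.6, lay well below the lowest isotype array, at 474.1.

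Cxcl2 rose in isotype against syngeneic skin by 2.96 ± 0.86 (adjusted p = 0.028) on day 14 and by 5.50 ± 0.86 (adjusted p = 0.00025) on day 28. The day 28 rise ranked 35th in size among all 18193 genes. In anti-IFNAR1 against isotype skin the difference was -1.93 ± 0.86 (adjusted p = 0.26) on day 14, and on day 28 Cxcl2 fell by 5.41 ± 0.86 (adjusted p = 0.00052), rank 18 of all genes. Both day 28 calls held under every alternative tried, with adjusted p of at most 0.0077. The day 14 rise did not: without isotype replicate 1 it was 1.89, with an adjusted p of 0.094.

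Cxcl5, known as LIX in mice, a ligand made by epithelium and stroma, was at 6.82 to 8.37 on all syngeneic arrays of both days. In isotype skin on day 14 its intensities were 2820, 275.4, 298.7 and 7.04, so that replicate 4 was at the syngeneic level. In anti-IFNAR1 skin on day 14 they were 27.7, 6.96, 7.62 and 7.81. By day 28 the isotype arrays read 23.3, 17.6, 80.8 and 77.3, and the anti-IFNAR1 arrays 6.92 to 7.50. The isotype arrays of day 28 were all above both other groups of that day, at intensities of at most 80.8.

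Cxcl5 rose by 3.57 ± 0.85 (adjusted p = 0.01) in isotype against syngeneic skin on day 14, the largest rise of the 6 genes on that day. Its day 28 difference was 1.35 ± 0.85 (adjusted p = 0.36), and anti-IFNAR1 against isotype skin gave -1.34 ± 0.85 (adjusted p = 0.37). On day 14 anti-IFNAR1 against isotype skin gave -3.34 ± 0.85 (adjusted p = 0.066), rank 6 in size among all genes. Without isotype replicate 4, the isotype array at the syngeneic level, that difference was -4.54, with an adjusted p of 0.001. Over 18 alternatives the adjusted p ran from 0.001 to 0.38, and 16 of them left the difference uncalled. The SD of Cxcl5 was 2.84 in isotype skin on day 14 and at most 0.81 in every other group. The shared SE of 0.85 is therefore wide for day 28 and narrow for day 14. With only the arrays compared in the fit, the day 14 rise had an adjusted p of 0.22.

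Csf3, the G-CSF gene, was at the floor of the array, 4.61 to 4.86, on all 16 syngeneic and anti-IFNAR1 arrays. In isotype skin it read 572.5, 6.63, 4.72 and 4.62 on day 14 and 29.3, 4.67, 4.77 and 17.2 on day 28. Only replicate 1 of day 14 was well above the array median. The differences of Csf3 were 1.23 ± 0.70 (adjusted p = 0.27) for isotype against syngeneic on day 14 and 0.45 ± 0.70 (adjusted p = 0.87) on day 28. The same array, isotype replicate 1 of day 14, held the highest value of Cxcl1, Cxcl5 and Csf3 in the whole study.

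Cxcr2, the receptor of these chemokines, was at 17.2 to 22.9 on all syngeneic and anti-IFNAR1 arrays. In isotype skin it read 45.3, 54.0, 50.7 and 17.4 on day 14 and 54.3, 50.6, 102.8 and 46.2 on day 28. Replicate 4 of day 14 was again at the syngeneic level, and on day 28 the isotype arrays did not overlap with either group.

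Cxcr2 rose in isotype against syngeneic skin by 0.66 ± 0.19 (adjusted p = 0.026) on day 14 and by 1.20 ± 0.19 (adjusted p = 0.00027) on day 28. It fell by 1.18 ± 0.19 in anti-IFNAR1 against isotype skin on day 28 (adjusted p = 0.00054), while the day 14 difference was -0.63 ± 0.19 (adjusted p = 0.11). The day 28 calls held under every alternative in which Cxcr2 was tested. The day 14 rise was lost in 7 of 18, among them those without isotype replicate 1, 2 or 3 (adjusted p = 0.078, 0.098 and 0.084). These differences are small in intensity because the probe set is dim: the medians on day 28 were 17.5 in syngeneic, 52.4 in isotype and 17.5 in anti-IFNAR1 skin.

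Csf3r, the G-CSF receptor, was measurable in every group. On day 14 its intensities were 142.0, 165.9, 63.8 and 89.9 in syngeneic skin, 204.1, 202.9, 621.8 and 415.9 in isotype skin, and 125.1, 88.4, 108.6 and 115.3 in anti-IFNAR1 skin. On day 28 they were 54.3, 88.9, 44.8 and 75.9 in syngeneic skin, 302.1, 304.3, 215.9 and 161.2 in isotype skin, and 27.8, 59.2, 89.2 and 88.5 in anti-IFNAR1 skin. On both days the isotype arrays lay above both other groups with no overlap. Replicate 4 of day 14, which had the lowest Cxcl1, Cxcl5 and Cxcr2 of its group, had the second highest Csf3r.

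Csf3r rose in isotype against syngeneic skin by 1.44 ± 0.35 (adjusted p = 0.012) on day 14 and by 1.67 ± 0.35 (adjusted p = 0.0029) on day 28. In anti-IFNAR1 against isotype skin it fell by 1.71 ± 0.35 (adjusted p = 0.0032) on day 28. The day 14 difference was -1.45 ± 0.35 (adjusted p = 0.061), close to the threshold and with an interval of -2.19 to -0.71. The rises in isotype against syngeneic skin were 1.36 (adjusted p = 0.068) on day 14 and 1.43 (adjusted p = 0.057) on day 28 without the 5 arrays of high Gapdh ratio.

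**Figure D2:**
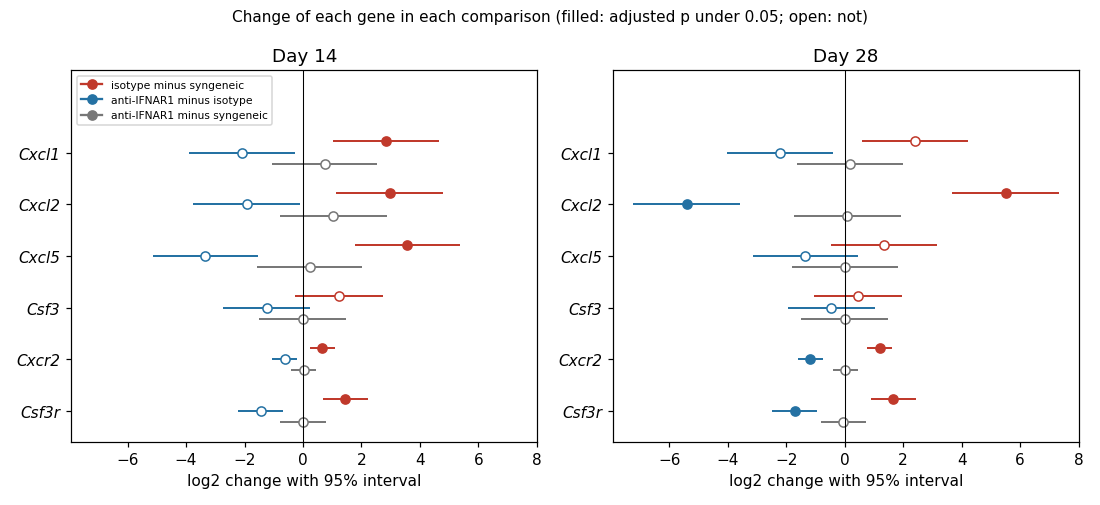
Log2 change of each gene with its 95% interval, for day 14 and day 28. Red is isotype minus syngeneic, blue anti-IFNAR1 minus isotype and grey anti-IFNAR1 minus syngeneic, and filled points passed the threshold. On day 28 Cxcl2, Cxcr2 and Csf3r are filled in both red and blue, and every grey point of that day lies between -0.05 and 0.19.

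Read as a set, 5 of the 6 genes rose in isotype against syngeneic skin on day 14, where 5.29% of all genes rose, and 3 of 6 rose on day 28, where 6.66% did. The median change of the 6 was 2.14 on day 14 and 1.51 on day 28, against -0.01 and 0.00 over all genes. The count of 5 on day 14 depended on the shared spread: with only the 8 arrays compared in the fit, none of the 6 passed, and 83 genes (0.456% of all) did. It also fell to 0 without the 5 arrays of high Gapdh ratio, where 7.23% of all genes were called either way against 13.6% with them. The count was 2 without isotype replicate 1, syngeneic replicate 3 or syngeneic replicate 4, where 7.42%, 10.2% and 7.52% of all genes were called. It was 3 without isotype replicate 2 or 3, where 7.55% and 8.9% were called. On day 28 the count was 3 or 4 under every alternative except the one without the high-ratio arrays, where Csf3r did not pass.

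In anti-IFNAR1 against isotype skin 3 of the 6 genes fell on day 28, where 4.89% of all genes fell. On day 14 limma called none of the 6, while 5 had an unadjusted p under 0.05 and all 6 differences were negative, from -3.34 to -0.63. Of all 18193 genes 0.654% fell on that day, and 3075 had an unadjusted p under 0.05 in that comparison. With array weights 4 of the 6 passed on day 14, where 14.3% of all genes were called either way against 0.813% without weights. Without isotype replicate 4 3 passed, namely Cxcl1, Cxcl5 and Cxcr2, and 3.44% of all genes. Both of these comparisons use the same isotype arrays, so a high isotype array moves both, and their opposite signs are not 2 independent observations.

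Anti-IFNAR1 skin was also set against syngeneic skin directly, which does not use the isotype arrays. None of the 6 genes passed limma's test on either day, nor had an unadjusted p under 0.05. The differences ran from 0.00 for Csf3 to 1.04 for Cxcl2 on day 14, where 1.12% of all genes passed, and from -0.05 for Csf3r to 0.19 for Cxcl1 on day 28, where 0.033% passed. For Cxcl2 the 95% interval of the day 28 difference was -1.70 to 1.89, so differences within that span are compatible with these 4 arrays a group. For Cxcr2 the interval was narrower, -0.38 to 0.40.

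Between days, none of the 6 genes passed in syngeneic skin (0.077% of all genes did), in isotype skin (2.2%) or in anti-IFNAR1 skin (0.555%). In isotype skin 3 of the 6 had an unadjusted p under 0.05, against 0 in each of the other 2. Of all 18193 genes 2668 did so in isotype, 1652 in syngeneic and 2368 in anti-IFNAR1 skin. In isotype skin Cxcl2 was 3.11 ± 0.86 higher on day 28 than on day 14 (adjusted p = 0.063), and Cxcl5 gave -2.24 ± 0.85 (adjusted p = 0.2). Leaving out replicate 1 of day 14 gave 4.18 for Cxcl2 (adjusted p = 0.003), and leaving out replicate 4 of that day gave -3.44 for Cxcl5 (adjusted p = 0.0065). With all arrays kept, Cxcl2 also passed with an offset of 64 (adjusted p = 0.044), the dimmest genes left out (0.031) and array weights (0.037). Cxcl5 also passed with array weights (0.045). Both genes therefore passed or not according to the day 14 arrays in the fit and to the processing.

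Whether the changes themselves differed between days was tested with an interaction term. None of the 6 passed for isotype against syngeneic, where 0.044% of all genes passed and no member had an unadjusted p under 0.05. For anti-IFNAR1 against isotype none passed, against 0.0715% of all genes, and 2 had an unadjusted p under 0.05, as did 2468 of all 18193 genes. For Cxcl2 the difference between days was 2.54 ± 1.21 (adjusted p = 0.51) in the first and -3.49 ± 1.21 (adjusted p = 0.2) in the second. The second was -4.56 without isotype replicate 1 of day 14, with an adjusted p of 0.042. The other 26 of 27 alternatives left it uncalled, with adjusted p of up to 0.73.

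By mean level, the 2 isotype groups stood highest for all 6 genes. Cxcl1, Cxcl5, Csf3 and Csf3r had their highest mean in isotype skin on day 14, at 9.52 ± 2.30, 8.12 ± 2.84, 5.61 ± 2.39 and 8.41 ± 0.76 (SD, n = 4). Cxcl2 and Cxcr2 had it on day 28, at 10.50 ± 1.23 and 6.26 ± 0.43. The mean of Cxcl2 in isotype skin on day 14, 7.39 ± 2.14, lay between that and the 4.42 ± 0.06 to 5.46 ± 1.21 of the other 4 groups. Among these 4 groups none of the 6 genes passed in any comparison made, so their order carries no information beyond the spread.

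Cxcl3 is a further CXCR2 ligand and a close relative of Cxcl1 and Cxcl2. Its medians were 15.2 in syngeneic, 420.1 in isotype and 14.3 in anti-IFNAR1 skin on day 28, and the groups did not meet, with isotype arrays from 100.2 to 2192. Cxcl3 rose by 3.89 ± 0.93 (adjusted p = 0.0069) in isotype against syngeneic skin and fell by 3.97 ± 0.93 (adjusted p = 0.0076) in anti-IFNAR1 against isotype skin on day 28. On day 14 its differences were 2.57 ± 0.93 (adjusted p = 0.074) and -2.25 ± 0.93 (adjusted p = 0.23).

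The list of other genes of the CXCR2 axis held 7 genes, of which 6 were measured. On day 28, 2 of these rose and 2 fell with anti-IFNAR1 antibody. Besides Cxcl3 this was Cxcr4, the receptor that holds neutrophils in bone marrow and also marks lymphocytes, which rose by 2.25 ± 0.48 (adjusted p = 0.0031) and fell by 1.80 ± 0.48 (adjusted p = 0.017). On day 14 limma called none of the 6 in either comparison, and 1 had an unadjusted p under 0.05 in each. Ppbp and Cxcl15, 2 further ligands, had medians at the array floor, 4.46 to 4.56 and 4.64 to 4.74 in the 6 groups, although Ppbp reached 146.6 on 1 isotype array of day 14. Ackr1, the chemokine-binding receptor of venules and red cells, had medians of 218.8 to 384.1.

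Of 24 listed inducers of these chemokines and sensors 17 were measured. In isotype against syngeneic skin 7 rose on day 14 and 8 on day 28, and in anti-IFNAR1 against isotype skin 1 fell on day 14 and 7 on day 28. Il1b, the cytokine IL-1 beta, rose by 2.37 ± 0.73 (adjusted p = 0.037) on day 14 and by 4.98 ± 0.73 (adjusted p = 0.00016) on day 28, and fell by 5.13 ± 0.73 (adjusted p = 0.00024) with anti-IFNAR1 on day 28. Tnf, the gene of tumour necrosis factor, rose by 2.13 ± 0.32 and fell by 1.48 ± 0.32 in the same day 28 comparisons (adjusted p = 0.00021 and 0.0049). Tlr2, a receptor of bacterial lipoproteins, rose by 2.32 ± 0.30 on day 14 and by 2.57 ± 0.30 on day 28. With anti-IFNAR1 it fell by 1.62 ± 0.30 (adjusted p = 0.017) on day 14, as the 1 inducer called. This fall was uncalled in 6 of 19 alternatives, with adjusted p of up to 0.082. Il17a, a classic T cell inducer of Cxcl1 and Cxcl5, had medians of 4.78 to 4.89 in all 6 groups, at the array floor.

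Genes of colony-stimulating factor signalling were called in 7 of 11 on both days in isotype against syngeneic skin, all higher. Socs3, the feedback inhibitor of G-CSF and IL-6 signalling, rose by 2.38 ± 0.55 (adjusted p = 0.0084) on day 14 and 1.74 ± 0.55 (adjusted p = 0.034) on day 28. Csf2rb, the shared beta chain of the GM-CSF receptor, rose by 2.07 ± 0.48 (adjusted p = 0.0085) and 1.72 ± 0.48 (adjusted p = 0.017). In anti-IFNAR1 against isotype skin 5 of 11 fell on day 28, with Socs3 at -2.08 ± 0.55 (adjusted p = 0.015), and 2 of 11 without isotype replicate 4. On day 14 limma called none, with 5 at an unadjusted p under 0.05 and 5 called with array weights.

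Other neutrophil attractants and their receptors gave 6 of 11 measured genes higher on day 14 and 8 higher and 1 lower on day 28, in isotype against syngeneic skin. Fpr2, a formyl peptide receptor, rose by 4.04 ± 0.62 (adjusted p = 0.00079) and 4.81 ± 0.62 (adjusted p = 5.4e-05). Ccl3, a chemokine of macrophages and neutrophils, rose by 3.78 ± 0.36 (adjusted p = 8.3e-06) and 4.19 ± 0.36 (adjusted p = 1.4e-06). In anti-IFNAR1 skin, against isotype, Ccl3 fell by 1.89 ± 0.36 (adjusted p = 0.019) on day 14, where it was the 1 of 11 called, and by 3.74 ± 0.36 (adjusted p = 2e-05) on day 28, where 8 of 11 fell. Ccl3 kept its rises and its day 28 fall under every alternative tried. Its day 14 fall was lost in 6 of 19, with adjusted p of up to 0.15.

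Of the adhesion molecules by which neutrophils leave vessels, 5 of 11 rose on day 14 and 7 of 11 on day 28, and with anti-IFNAR1 1 fell on day 14 and 7 on day 28. Itgb2, the beta-2 integrin chain, rose by 1.89 ± 0.49 (adjusted p = 0.016) and 3.16 ± 0.49 (adjusted p = 0.00025), and fell by 2.13 ± 0.49 (adjusted p = 0.0068) on day 28. Itgam, its partner on neutrophils and macrophages, fell by 1.90 ± 0.42 (adjusted p = 0.039) on day 14, the 1 molecule called. That call was lost in 11 of 19 alternatives, with adjusted p of up to 0.18. Itgal, the partner on lymphocytes, rose by 2.28 ± 0.49 on day 14 and 3.61 ± 0.49 on day 28, so the list is not one of neutrophils alone.

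**Figure D3:**
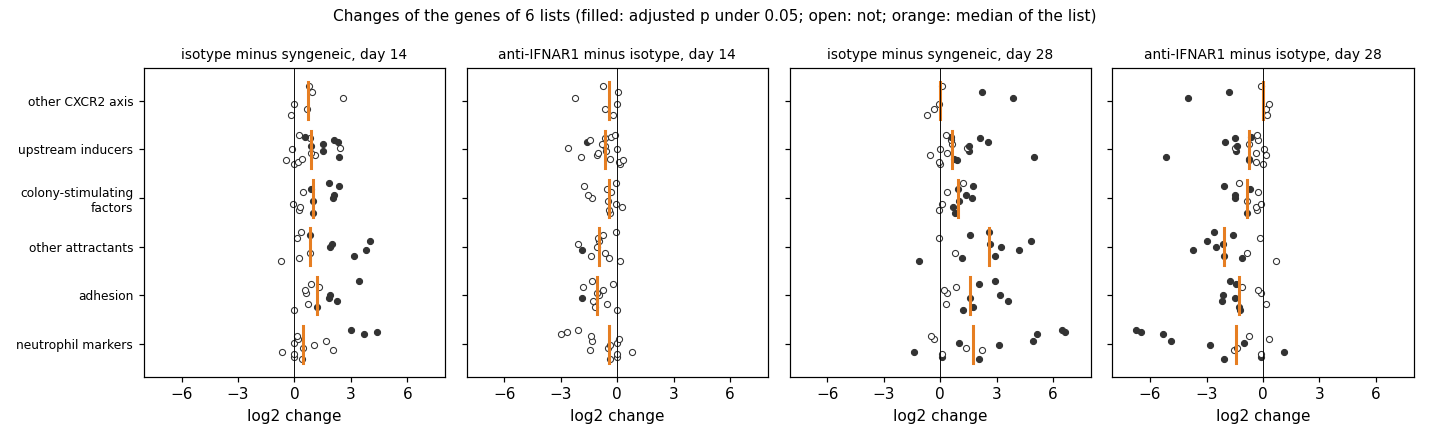
Log2 change of each measured gene of 5 pathway lists and of the neutrophil markers, for isotype minus syngeneic and anti-IFNAR1 minus isotype on each day. Filled points passed the threshold, and the orange bar is the median of a list. On day 28 the median of the neutrophil markers is 1.72 in isotype minus syngeneic and -1.46 in anti-IFNAR1 minus isotype.

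The counts of these lists differed between alternatives. On day 14, with only the arrays compared, the inducers, the colony-stimulating factor genes and the adhesion molecules had 0 genes called higher and the other attractants 2. Without the arrays of high Gapdh ratio the colony-stimulating factor genes had 3 and the adhesion molecules 3. Without isotype replicate 1 the inducers had 3 called on day 14, without isotype replicate 2 4, and without syngeneic replicate 4 3. The colony-stimulating factor genes had 4 without isotype replicate 2 or syngeneic replicate 4 of day 14, and on day 28 4 without syngeneic replicate 3 or 4 and 3 without isotype replicate 3. Their day 28 fall with anti-IFNAR1 was 3 without isotype replicate 3 or anti-IFNAR1 replicate 1, 2 or 3, and 3 with replicate number as a block. With array weights, which raised the share of all genes called in that comparison from 0.813% to 14.3%, the day 14 falls with anti-IFNAR1 were 9 inducers, 6 attractants and 6 adhesion molecules. Without isotype replicate 4, with 3.44% of all genes called, they were 3 inducers and 3 attractants.

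Of 16 neutrophil markers 14 were measured. The summed intensity of these 14 was 1615 to 3256 on the 4 syngeneic arrays of day 14, 2585 to 44398 in isotype and 2271 to 4296 in anti-IFNAR1 skin. On day 28 it was 1572 to 3266 in syngeneic, 22065 to 67059 in isotype and 1596 to 3081 in anti-IFNAR1 skin. In isotype against syngeneic skin 3 rose on day 14, S100a9, S100a8 and Stfa2l1. On day 28, 8 rose and 1, Il1r2, fell. In anti-IFNAR1 against isotype skin limma called none on day 14, with 4 at an unadjusted p under 0.05, and on day 28 8 fell and Il1r2 rose.

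The brightest markers were S100a9 and S100a8, the calprotectin subunits, which inflamed keratinocytes make as well, with medians of 20914 and 12523 in isotype skin on day 28. S100a9 rose by 4.39 ± 1.06 (adjusted p = 0.011) on day 14 and by 6.63 ± 1.06 (adjusted p = 3e-04) on day 28, and fell by 6.47 ± 1.06 (adjusted p = 0.00068) with anti-IFNAR1 on day 28. Ngp, a granule protein made by maturing neutrophils, rose by 4.91 ± 0.85 (adjusted p = 0.00057) and fell by 4.88 ± 0.85 (adjusted p = 0.0011) in the same day 28 comparisons. Its intensities in isotype skin on day 28 were 76.6 to 1956 against 6.08 to 6.60 in syngeneic skin. Mpo and Elane, granule enzymes of immature neutrophils, passed with small changes on day 28, 0.99 ± 0.21 (adjusted p = 0.0028) and 0.12 ± 0.03 (adjusted p = 0.017), at medians of 32.8 and 6.61 in isotype skin. Both the 8 rises and the 8 falls of day 28 were 5 with only the arrays compared and 4 with the dimmest genes left out, a fit that did not hold Ngp. With anti-IFNAR1 on day 14, 3 fell with array weights and 3 without isotype replicate 4. On day 14 the 3 calls were 0 with only the arrays compared and without the high-ratio arrays, and 1 without isotype replicate 1.

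Genes of wounded or inflamed keratinocytes, such as Krt6a, Krt6b and Krt16, were read as a list of 6. They summed to 6210 to 17276 in syngeneic skin on day 14, 11309 to 168416 in isotype and 20661 to 50417 in anti-IFNAR1 skin. On day 28 the sums were 10588 to 14163, 139441 to 260129 and 11402 to 26337. Of the 6, 5 rose on day 14 and all 6 on day 28 in isotype against syngeneic skin, and 5 fell on day 28 with anti-IFNAR1. On day 14 limma called none lower with anti-IFNAR1, with 2 at an unadjusted p under 0.05 and 4 called without isotype replicate 4. On day 14, 0 of the 6 rose with only the arrays compared, 2 without the high-ratio arrays, and 3 without isotype replicate 1, 2 or 3 or syngeneic replicate 3.

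Macrophage and monocyte genes summed to 22288 to 49906 in syngeneic, 107788 to 128738 in isotype and 59453 to 82848 in anti-IFNAR1 skin on day 14. By day 28 these sums were 9704 to 28752, 37384 to 83706 and 24129 to 41926. Of 10 measured, 9 rose on day 14 and 7 on day 28 in isotype against syngeneic skin, and 3 fell on day 28 with anti-IFNAR1. On day 14 limma called none of the 10 with anti-IFNAR1, with 3 at an unadjusted p under 0.05 and 3 called with array weights. The 9 on day 14 were 1 with only the arrays compared and 5 without syngeneic replicate 4, and the 7 on day 28 were 3 with only the arrays compared. The 3 falls of day 28 were 6 with the Gapdh ratio as a covariate and 5 with array weights or the dimmest genes left out. T cell genes summed to 71.2 to 234.1, 1318 to 1924 and 505.9 to 1011 on day 14 in syngeneic, isotype and anti-IFNAR1 skin, and to 68.0 to 186.2, 1111 to 1562 and 244.2 to 421.1 on day 28. All 6 measured T cell genes rose on both days in isotype against syngeneic skin, and with anti-IFNAR1 3 fell on day 14 and 6 on day 28. The 3 on day 14 were 0 with only the arrays compared and 5 with array weights. The 8 hair follicle genes summed to 4529 to 113163 in syngeneic, 203.7 to 8446 in isotype and 157.1 to 222685 in anti-IFNAR1 skin on day 28, with a median change of -4.59 and 2 of 8 called lower in isotype against syngeneic skin. That count was 4 or 5 under 5 alternatives. Fibroblast genes gave 2 of 6 lower on both days in that comparison, Pdgfra and Dpt, and Dpt rose by 1.19 ± 0.30 (limma adjusted p = 0.011) with anti-IFNAR1 on day 28, when 3 of the 6 rose with array weights. Of 5 endothelium genes 1 fell on day 14 in isotype against syngeneic skin, and 1 rose on day 28 with anti-IFNAR1. Platelet genes summed to 642.2 to 1989 in syngeneic, 3132 to 5963 in isotype and 1732 to 3275 in anti-IFNAR1 skin on day 14, where 1 of the 3 measured, Pf4, rose by 1.90 ± 0.34 (adjusted p = 0.0022). The part of any of these cell types in the changes of the chemokines and receptors was not tested.

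Isotype replicate 4 of day 14 set these markers apart. Its neutrophil sum was 2585 and its wounded keratinocyte sum 11309, against 12531 to 44398 and 129699 to 168416 in the other 3 isotype arrays of that day. Its macrophage sum, 107788, was next to their 108362 to 128738. S100a9, counted in the neutrophil sum and also made by inflamed keratinocytes, was 331.5 on replicate 4 and 5274 to 23621 on the other 3. The neutrophil and keratinocyte sums are therefore not separate readings. On replicate 4 Cxcl5 and Cxcr2 stood at the syngeneic level, at 7.04 and 17.4, while Csf3r was 415.9 and Cxcl2 57.9. Replicate 1 had the highest neutrophil sum, 44398, and the highest Cxcl1, Cxcl2, Cxcl5 and Csf3 of that group.

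**Figure D4:**
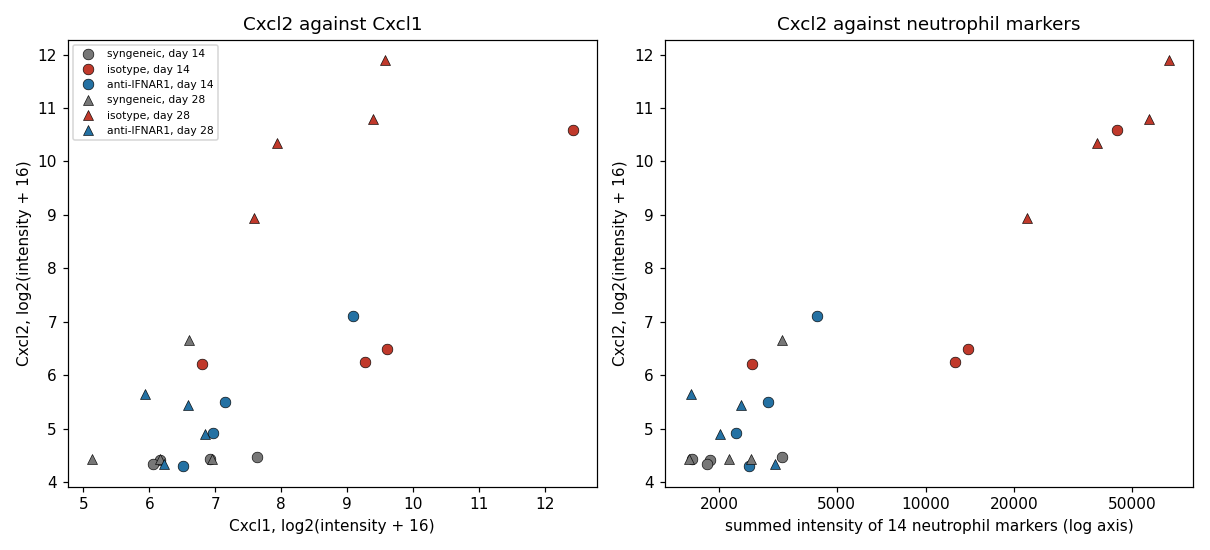
Level of Cxcl2, as log2(intensity + 16), on each of the 24 arrays against the level of Cxcl1 (left) and against the summed intensity of 14 neutrophil markers on a log axis (right). Colours are groups, circles day 14 and triangles day 28. The 4 isotype arrays of day 28 and isotype replicate 1 of day 14 are the 5 arrays with the highest neutrophil sums and the highest Cxcl2. The 14 markers include S100a9 and S100a8, which inflamed keratinocytes make as well.

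Over the 24 arrays, which share the 6 groups, Pearson's r between log2 levels was 0.85 for Cxcl1 with Cxcl5, 0.80 for Cxcl2 with Cxcr2 and 0.74 for Cxcl1 with Cxcl2. With the group means taken out r was 0.77 for Cxcl1 with Cxcl2 and 0.75 for Cxcl1 with Cxcl5, and 0.13 for Cxcl2 with Cxcr2. Csf3r was then at -0.35 to -0.14 with the other 5 genes. These values are descriptions of the arrays, and isotype replicate 1 of day 14 weighs heavily in those of the chemokines.

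The genes most like each member were named by the highest r over the 24 arrays. For Cxcl1 they were Ets1 (0.93), Il6 (0.92) and Ptgs2 (0.91), where Il6 and Ptgs2 encode interleukin 6 and cyclooxygenase-2. For Cxcl5 they were Il6 (0.93), Fam167b (0.93) and Saa1 (0.92), a serum amyloid A gene. For Cxcl2 they were Sprr2f (0.94), Lce3c (0.94) and Lce3a (0.94), cornified envelope genes of keratinocytes. With the group means taken out, those of Cxcl2 were Hilpda (0.87), Ptgs2 (0.86) and Cxcl3 (0.82), and Il6 stayed among the first 3 for Cxcl1 (0.89) and Cxcl5 (0.87).

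For the receptors the most like genes were different ones. Cxcr2 went with Serpinb3a (0.94), Ly6i (0.92) and Wfdc12 (0.91), and Csf3r with Arhgdib (0.89), Cd5 (0.89) and Trbv1 (0.88), of which Cd5 and Trbv1 are T cell genes. Those of Csf3 were Spred3 (0.99), U90926 (0.97) and Prok2 (0.97), and the value of Csf3 rests on the 1 array on which it was high.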

How the data were processed

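The arrays' probe set values were used as deposited: per the labels' protocols, total RNA from frozen skin was biotin-labelled by the standard Affymetrix method, and the deposited table holds linear intensity values, 1.68 to 92640. The summarisation and normalization steps are not given in the sources used here.

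Of 45101 probe sets 64 controls were left out, and 34945 with 1 gene symbol were used. Each of 18193 genes was read by its brightest probe set, by the mean over 24 arrays, on the log2(intensity + 16) scale without further normalization. limma 3.58.1 in R 4.3.3 fitted a mean per group over all 24 arrays (18 residual degrees of freedom, prior 0.71), with two-sided p-values adjusted by Benjamini-Hochberg. The script was tested on simulated data. The number of arrays limits the precision.

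The text names the 6 genes, the called list genes with the largest changes (up to 4 a list and comparison), the 3 genes most correlated with each member, and, outside that rule, some uncalled list genes. The members, lists and tests were chosen with earlier results of these data known. Alternatives were offsets of 1 and 64, quantile normalization, the dimmest 40% left out, the mean of probe sets, array weights, a trended robust prior, fits restricted to the arrays compared, a replicate block, the Gapdh ratio as a covariate and each array left out. A fit without the arrays of a ratio above 4 was added after seeing the data.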

Additional observations from a re-analysis of the deposited data

Results flagged for a closer look

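In 4 of the 36 sets of 4 arrays (6 genes in 6 groups) 1 array stood apart from the other 3 by more than Dixon's criterion allows, where chance flags about 1 in 20 sets. Cxcl2 was 1532 in isotype replicate 1 of day 14, against 57.9 to 74.0 on the other 3 arrays. Csf3 was 572.5 on the same array, against 4.62 to 6.63. Cxcl2 was 85.6 in syngeneic replicate 1 of day 28, against 5.50 to 5.67. Cxcl5 was 27.7 in anti-IFNAR1 replicate 1 of day 14, against 6.96 to 7.81.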

How the results depend on the processing

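The counts of called members on day 28 and between anti-IFNAR1 and syngeneic skin kept within 1.5 times of the reported ones under every alternative tried. The 5 members called in isotype against syngeneic skin on day 14 became 0 with only the arrays compared and 0 without the high-ratio arrays. With the dimmest genes left out they were 3, because Cxcl5 and Cxcr2 were not in that fit, where 25.1% of its genes were called. With 1 array left out they were 2 to 5, where 7.42% to 17.4% of all genes were called, against 13.6%. For anti-IFNAR1 against isotype skin on day 14, where none was called, 1 passed with an offset of 64, with the dimmest genes left out and with the mean of probe sets, 4 with array weights (14.3% of all genes called, against 0.813%), and 0 to 3 with 1 array left out (3.44% of all genes where 3 passed). For isotype skin between days 1 passed with an offset of 64 and with the dimmest genes left out, 2 with array weights (6.48% of all genes, against 2.2%), and 0 to 1 with 1 array left out. For the difference between days of anti-IFNAR1 against isotype skin the range was 0 to 1 with 1 array left out. The cause of these shifts was not tested, apart from fewer arrays or genes in some fits. Cxcl1 passed on day 28 in isotype against syngeneic skin in 6 of 19 alternatives, over a range of adjusted p of 0.028 to 0.23. Among these were an offset of 1 (0.044), the dimmest genes left out (0.028) and only the arrays compared (0.049). In anti-IFNAR1 against isotype skin of day 28 Cxcl1 passed in 3 of 19, over a range of 0.03 to 0.25. No member's change in isotype against syngeneic or anti-IFNAR1 against isotype skin reversed. Of the members' other, uncalled changes, recomputed 782 times, 60 changed sign and none was then called.

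Equal replicate numbers did not pair the arrays: same-number correlations of deviations ran from -0.62 to 0.57, and no comparison had every pair over 0.1. With replicate number as a block the counts were 5 and 3 for isotype against syngeneic skin and 0 and 3 for anti-IFNAR1 against isotype skin on days 14 and 28. The block changed no member's call.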

Other observations

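Chosen after the values were seen, the difference of log2 levels of Cxcl2 and Cxcl1 within an array moved between the days in isotype skin. It was -3.10 to -0.59 on the 4 arrays of day 14 and 1.35 to 2.41 on those of day 28, with no overlap. With the second brightest Cxcl1 probe set it was -3.41 to 0.10 and 2.58 to 3.12. In syngeneic skin the values were -3.15 to -1.70 on day 14 and -2.52 to 0.06 on day 28, and in anti-IFNAR1 skin -2.22 to -1.64 and -1.95 to -0.28. Probe sets differ in brightness, so these differences can be compared between arrays and not with 0.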
